A study of Mus musculus with 6 samples.

Results

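Secreted and matrix-acting factors that act on epithelium, vessels and the extracellular matrix were followed in RNA of group 2 innate lymphoid cells (ILC2s) from mouse lung: Areg, Vegfa, Metrnl, Osm, Ecm1, Lif, Mmp9 and Tgm2. The 8 genes were chosen by their function, with earlier results of these data known. All 8 were found among the 18057 genes of the deposited count table. The 3 Piezo1 KO libraries carried Il7r-Cre, a Cre driver active in lymphoid cells, together with a floxed Piezo1 allele, and the 3 WT libraries carried Il7r-Cre according to their genotype label, while their titles call them WT. Piezo1 encodes a mechanically gated cation channel. In both genotypes IL-33 had been given intranasally, 1 µg in each of 3 doses, and the ILC2s were then cultured for 24 h in 10 ng/mL IL-7 and 10 ng/mL IL-2. Neither age nor sex is in the labels. They also leave out whether replicates are separate or pooled animals, so a p-value here reflects spread among libraries that may be technical. The RNA is that of a cell population, so fewer cells that make a transcript and less transcript per cell cannot be told apart.

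ILC2s are known for type 2 cytokines, but they also release factors that rebuild tissue. Amphiregulin (Areg) binds the epidermal growth factor (EGF) receptor on epithelium after a protease has cut it from the cell surface. Vascular endothelial growth factor A (Vegfa) acts on endothelium, and oncostatin M (Osm) and leukaemia inhibitory factor (Lif) signal through receptors that share the chain gp130. Extracellular matrix protein 1 (Ecm1), matrix metalloproteinase 9 (Mmp9) and transglutaminase 2 (Tgm2) bind, cut and cross-link matrix, and meteorin-like (Metrnl) is a secreted hormone-like protein.

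The libraries held 13059046 to 33459904 estimated counts. Values are given as CPM, counts relative to the TMM-scaled library total, and a gene was called where the adjusted p of edgeR's quasi-likelihood test (Benjamini-Hochberg over all 14149 genes tested) was under 0.05. Piezo1 itself was at 150.0, 109 and 122 CPM in Piezo1 KO replicates 1, 2 and 3, against 247, 278 and 160.0 CPM in WT replicates 1, 2 and 3. The groups did not overlap, and the log2 fold change of −0.85 ± 0.21 (SE) missed the threshold (adjusted p = 0.112, edgeR). Piezo1 passed in DESeq2 (0.00189), in limma-voom (0.0157), without WT replicate 3 (0.0163) and with protein-coding genes only (0.0493). Reads from exons that stay in place after Cre acts are part of a count per gene, and their part in these Piezo1 values was not tested. All 13 ILC2 markers were in the table and summed to 11759 to 12571 CPM in Piezo1 KO and 10244 to 11138 CPM in WT, most of it Il5 and Il2ra. Of the 13, Il7r (log2 fold change −1.03 ± 0.12, adjusted p = 0.00722, edgeR) and Icos (−0.61 ± 0.09, adjusted p = 0.0168) fell, Il17rb rose (0.74 ± 0.10, adjusted p = 0.0136) and the others did not pass. Neutrophil markers summed to at most 0.555 CPM in Piezo1 KO and 0.906 CPM in WT, and none of 6 endothelial markers was in the table. Other lists summed higher. In Piezo1 KO and WT, NK cell markers summed to 40.2 to 59.8 and 62.8 to 85.8 CPM, and T cell markers to 19.9 to 26.2 and 27.1 to 35.5 CPM. Dendritic cell markers summed to 33.2 to 36.4 and 30.1 to 35.8 CPM, and epithelial markers to 16.1 to 20.9 and 12.0 to 17.8 CPM. Most of each sum came from a single gene, Gzma, Cd3g, Xcr1 and Epcam in turn.

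Ecm1 rose in Piezo1 KO ILC2s, 1.55-fold, and was the 1 member that passed the threshold. Osm, Areg and Vegfa had higher means in Piezo1 KO by 1.30-fold, 1.31-fold and 1.20-fold without passing, Lif differed by 1.09-fold, and Metrnl had a lower mean. Mmp9 and Tgm2 were near the limit of detection in both genotypes. Of the 7 members that passed the filter on low counts, 1 rose, 0 fell and 6 did not pass (edgeR), where 1.51% of all tested genes were called, 1.00% higher and 0.509% lower. At an unadjusted p under 0.05 there were 3 higher (Areg, Osm and Ecm1) and 0 lower of the 7, where 6.30% of all tested genes were higher and 6.91% lower. Both DESeq2 and limma-voom called Ecm1 and Osm higher and 0 members lower. Of all 14149 genes, DESeq2 called 353 higher and 241 lower, and limma-voom 267 and 172. The log2 fold change was positive for 5 and negative for 2 of the 7, where 53.0% of all tested genes had a positive one, and its median was 0.26, against 0.02 over all genes tested. The groups did not overlap for 3 of the 7, all higher in Piezo1 KO (Vegfa, Osm and Ecm1), where 20.6% of tested genes did not overlap, 10.1% higher and 10.5% lower.

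**Figure D1:**
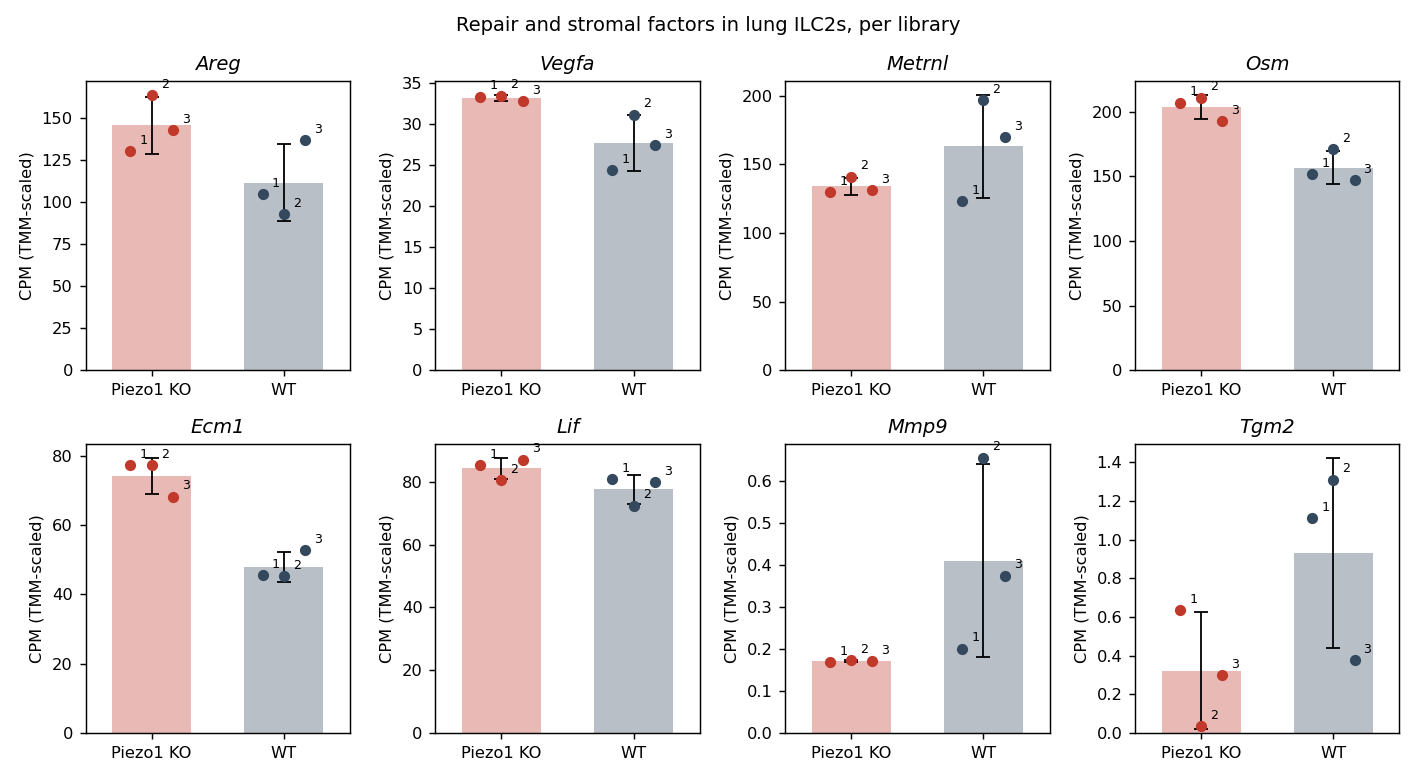
TMM-scaled CPM of the 8 members in each library, with Piezo1 KO left of WT. Bars are means of 3 libraries, whiskers 1 SD, and each point is a library labelled by its replicate number; axes start at 0 and differ between genes. Ecm1 sits between 68.2 and 77.3 CPM in Piezo1 KO, above all WT libraries (45.2 to 52.8 CPM), while Areg and Lif overlap between the genotypes.

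**Figure D2:**
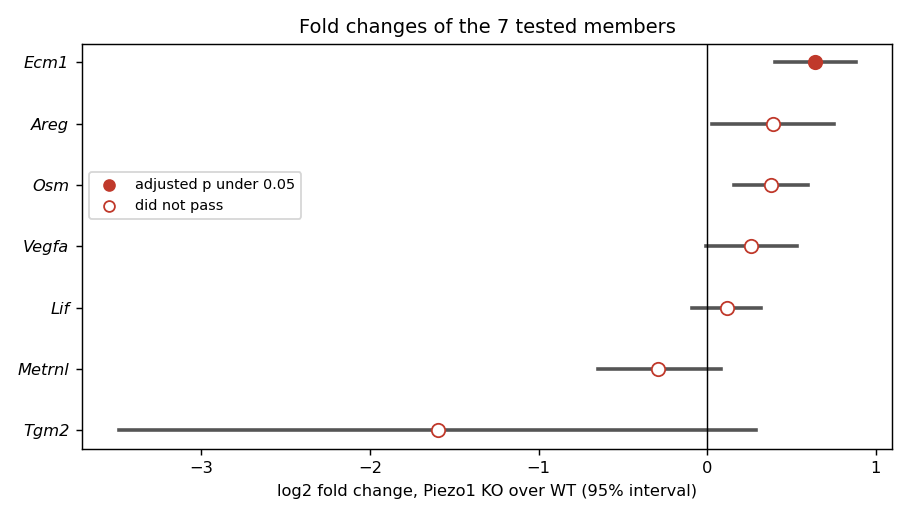
Log2 fold change of Piezo1 KO over WT for the 7 tested members with its 95% interval from the edgeR fit. The filled point (Ecm1, 0.64) passed an adjusted p of 0.05; the interval of Tgm2, from −3.49 to 0.29, is far wider than the others.

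Counted per kilobase of exons, which allows levels to be compared between genes, Areg, Metrnl and Osm were the most abundant members. Areg lay between 76.5 and 135 CPM per kb over the 6 libraries, Metrnl between 77.8 and 124 and Osm between 64.7 and 93.0, and neighbours in this order overlapped. Ecm1 (17.9 to 30.7 CPM per kb) and Lif (16.6 to 20.0) followed, below every library of the first 3 genes and overlapping each other. Vegfa reached 5.69 to 7.83 CPM per kb, apart from Lif. Tgm2 (0.00750 to 0.285 CPM per kb) and Mmp9 (0.0478 to 0.186) were last and overlapped. With the longest transcript as length, Metrnl and Areg changed places at the top, and the other places were as before, but Ecm1 (23.8 to 40.7 CPM per kb) then lay above Lif (18.0 to 21.6) in every library.

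**Figure D3:**
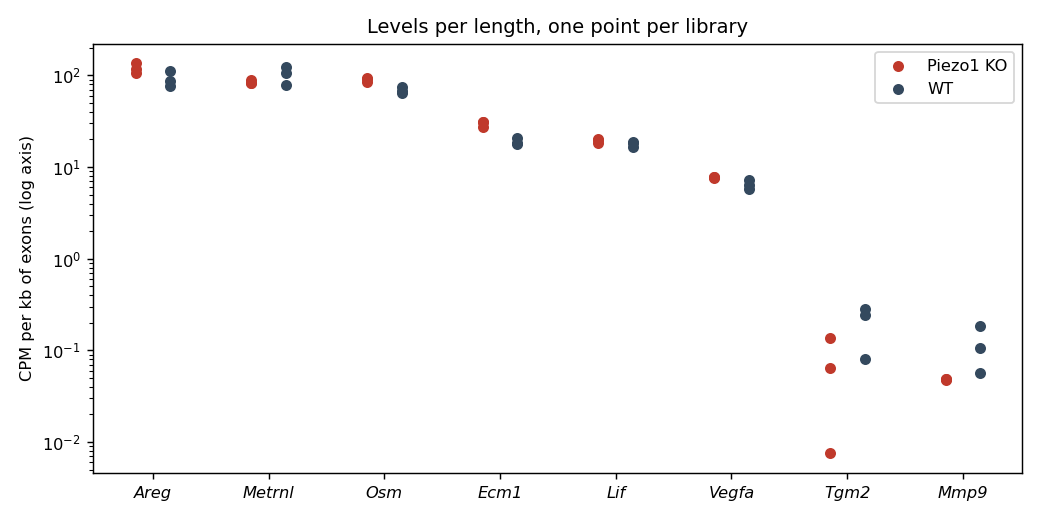
Level of each member per kilobase of exons (CPM per kb, log axis), 1 point per library, Piezo1 KO left of WT, ordered by the mean over 6 libraries. Areg, Metrnl, Osm, Ecm1, Lif and Vegfa lie at 5.69 CPM per kb or above in every library, and Tgm2 and Mmp9 at 0.285 or below.

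The sequence before the start site is shown for Ecm1, the member that was called, and for Areg, Vegfa and Lif, which were not called, so that their upstream sequences can be compared. Of the 8 members 5 matched the promoter table. Osm, Mmp9 and Tgm2 did not. The Metrnl window and a second Vegfa window lie inside the annotated genes and were neither searched nor shown. Capitals mark matches, on either strand, to these motifs. The hypoxia response element core is ACGTG or, with its first base changed, GCGTG. The cAMP response element is TGACGTCA, AP-1 is TGANTCA and STAT is TTCNNNGAA. The GATA factor motif is AGATAA or, with its first base changed, TGATAA. The NF-kB pattern is GGG followed after 5 bases by CC. Sequences are from RefSeq on GRCm38.p6, 5′ to 3′ on the strand of the gene. Those of Ecm1, Areg and Vegfa are 250 bases that end just before the start RefSeq annotates. That of Lif is 239 bases, since the last 11 before the RefSeq start lie inside the GENCODE gene and are not shown. All positions count from the RefSeq start.
Ecm1, chr3:95739570-95739819, minus strand: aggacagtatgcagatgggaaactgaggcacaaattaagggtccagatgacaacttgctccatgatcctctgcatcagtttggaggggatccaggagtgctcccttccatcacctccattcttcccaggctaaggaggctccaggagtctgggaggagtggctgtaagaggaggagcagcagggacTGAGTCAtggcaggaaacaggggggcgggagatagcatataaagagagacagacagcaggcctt
Areg, chr5:91139349-91139598, plus strand: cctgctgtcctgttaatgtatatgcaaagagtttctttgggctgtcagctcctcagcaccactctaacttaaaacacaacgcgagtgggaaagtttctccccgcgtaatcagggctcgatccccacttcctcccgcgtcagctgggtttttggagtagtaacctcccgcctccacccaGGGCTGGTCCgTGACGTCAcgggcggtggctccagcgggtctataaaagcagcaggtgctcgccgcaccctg
Vegfa, chr17:46032378-46032627, minus strand: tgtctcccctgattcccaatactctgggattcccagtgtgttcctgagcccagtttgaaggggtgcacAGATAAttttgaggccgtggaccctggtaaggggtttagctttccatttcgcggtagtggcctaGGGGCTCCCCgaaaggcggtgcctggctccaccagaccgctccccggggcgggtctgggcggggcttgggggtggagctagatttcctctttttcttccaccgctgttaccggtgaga
Lif, chr11:4257318-4257556, plus strand: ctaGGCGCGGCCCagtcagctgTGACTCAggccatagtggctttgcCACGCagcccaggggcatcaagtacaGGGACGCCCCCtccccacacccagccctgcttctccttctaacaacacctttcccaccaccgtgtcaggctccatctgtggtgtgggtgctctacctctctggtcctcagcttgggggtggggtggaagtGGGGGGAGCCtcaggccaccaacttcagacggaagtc
The Ecm1 window held 1 match, the AP-1 letters TGAGTCA from −64 to −58 relative to the RefSeq start, and 6.75% of all 32851 promoter windows of 250 bases hold such a match. Areg held the cAMP response element TGACGTCA from −61 to −54, found in 1.55% of windows, next to an NF-kB match, which 45.8% of windows hold. Lif held the AP-1 letters TGACTCA from −228 to −222, a hypoxia core on the opposite strand from −204 to −200 (28.2% of windows hold GCGTG) and several NF-kB matches, some of which overlap. Vegfa held AGATAA from −182 to −177 (9.99% of windows) and an NF-kB match, and neither hypoxia core occurred in this window. Sequence farther upstream was not searched. A match describes letters only and is not evidence that a factor binds there.

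Areg, whose protein acts on epithelium, lies on chromosome 5 from 91139599 to 91148432 (mm10, plus strand). It was at 130.3, 164 and 143 CPM in Piezo1 KO replicates 1, 2 and 3, against 105, 92.9 and 137 CPM in WT replicates 1, 2 and 3. The groups overlapped, because WT replicate 3 lay above Piezo1 KO replicate 1. The mean was 146 ± 17.1 CPM in Piezo1 KO and 111 ± 22.6 CPM in WT (SD, n = 3 each). The log2 fold change of 0.39 ± 0.16 (SE; 95% interval 0.03 to 0.75) did not pass (adjusted p = 0.328, edgeR, from 0.0744 to 0.823 over 13 alternative fits). Its log2 fold change was 0.56 without WT replicate 3 and 0.26 without WT replicate 2. The 2 genes whose deviations from their own mean were most like those of Areg, out of 8645 compared over the 6 libraries, were Prdx5, a peroxiredoxin, and Fabp5, a fatty acid-binding protein. They differed from Areg by a root-mean-square of 0.0349 and 0.0413 log2 CPM, where Areg itself varied by 0.276. Both had an adjusted p of 0.317 (edgeR), and a value near that of Areg follows largely from choosing them for their likeness.

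Areg supplied almost all transcript of the EGF receptor ligands. Per kilobase, it made up 98.7%, 98.5% and 98.7% of the summed level of the 6 ligands in the table in Piezo1 KO replicates 1, 2 and 3, against 97.7%, 98.0% and 98.2% in WT replicates 1, 2 and 3. The shares did not overlap between the genotypes. Of the other ligands, 3 were tested, 0 were called and Egf had the smallest p, with 0.634, 0.484 and 0.342 CPM in Piezo1 KO and 1.21, 0.836 and 1.57 CPM in WT (log2 fold change −1.28 ± 0.46, adjusted p = 0.274, edgeR). That was the 1 ligand with an unadjusted p under 0.05, where 6.91% of all tested genes were lower, and DESeq2 and limma-voom called 0. None of 10 tested shedding genes was called, at an unadjusted p under 0.05 (0) or by DESeq2 or limma-voom (0 each). Adam17, the protease that releases amphiregulin, averaged 125 ± 4.96 CPM in Piezo1 KO and 111 ± 20.1 CPM in WT (SD, n = 3 each), a log2 fold change of 0.17 with a 95% interval from −0.14 to 0.47 (adjusted p = 0.668, edgeR). Of the EGF receptor family 2 were tested and 0 were called, also at an unadjusted p under 0.05 and by DESeq2 and limma-voom. Egfr had 33, 28 and 29 counts in Piezo1 KO replicates 1, 2 and 3, against 20, 18 and 0 counts in WT replicates 1, 2 and 3 (adjusted p = 0.592, edgeR).

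Vegfa, whose protein acts on vessels, lies on chromosome 17 from 46016993 to 46032369 (mm10, minus strand). It was at 33.4, 33.5 and 32.8 CPM in Piezo1 KO replicates 1, 2 and 3, against 24.4, 31.2 and 27.5 CPM in WT replicates 1, 2 and 3. The 3 Piezo1 KO libraries were close together and all above WT, with WT replicate 2 nearest to them. The means were 33.2 ± 0.417 CPM in Piezo1 KO and 27.7 ± 3.39 CPM in WT (SD, n = 3 each). The log2 fold change of 0.26 ± 0.12 (SE; 95% interval −0.01 to 0.53) did not pass in any fit (adjusted p = 0.393, edgeR, from 0.113 to 0.818 over 13 alternatives). Vegfc, the growth factor of lymphatic vessels, had the smallest p among the other VEGF and PDGF ligands. It was at 12.6, 12.2 and 14.0 CPM in Piezo1 KO and 7.85, 8.54 and 6.37 CPM in WT, with no overlap. Its log2 fold change of 0.76 ± 0.17 did not pass (adjusted p = 0.0809, edgeR), but it passed in 4 of 13 alternatives, among them without WT replicate 2 (0.0457) and in DESeq2 (0.00661). Of these 3 other ligands 0 were called by edgeR. At an unadjusted p under 0.05, 1 was higher and 1 lower (6.30% and 6.91% of all tested genes). Per kilobase Vegfa made up 37.2% to 39.9% of Vegfa, Vegfb and Vegfc together in Piezo1 KO and 32.5% to 39.0% in WT, and the genotypes overlapped. The 1 tested receptor gene, the co-receptor Nrp1, was at 11.0 to 13.3 CPM in Piezo1 KO and 10.0 to 13.5 CPM in WT (adjusted p = 0.983, edgeR).

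Osm, a cytokine that acts on epithelium, fibroblasts and endothelium, was the member nearest to the threshold below Ecm1. It was at 207, 211 and 193 CPM in Piezo1 KO replicates 1, 2 and 3, against 152, 171 and 147 CPM in WT replicates 1, 2 and 3. Every Piezo1 KO library was above every WT library. The means were 204 ± 9.44 CPM in Piezo1 KO and 157 ± 12.6 CPM in WT (SD, n = 3 each). Its log2 fold change was 0.38 ± 0.09 (SE; 95% interval 0.16 to 0.60), with an adjusted p of 0.122 (edgeR), and 2 of 13 alternative fits called it, DESeq2 (0.0104) and limma-voom (0.0330). The adjusted p over the 13 ran from 0.0104 to 0.498.

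Lif lies on chromosome 11 next to Osm, with 16.5 kb and no other gene of the table between them. In mm10, Osm spans 4236420 to 4241026 and Lif spans 4257557 to 4272514, both on the plus strand. Lif was at 85.4, 80.5 and 87.1 CPM in Piezo1 KO replicates 1, 2 and 3, against 80.9, 72.4 and 79.8 CPM in WT replicates 1, 2 and 3. The groups overlapped, since Piezo1 KO replicate 2 lay below WT replicate 1. The log2 fold change was 0.12 ± 0.09 (SE; adjusted p = 0.639, edgeR), with a 95% interval from −0.09 to 0.32. Osm made up 80.9% to 83.4% of Osm and Lif together per kilobase in Piezo1 KO and 77.9% to 81.9% in WT, with overlap. Of the other ligands of the IL-6 family, 3 were tested and 0 were called, also by DESeq2 and limma-voom. At an unadjusted p under 0.05, 1 was lower (6.91% of all tested genes). That gene was Ebi3, a subunit of IL-27, at 12.4 to 13.7 CPM in Piezo1 KO and 15.3 to 19.2 CPM in WT (log2 fold change −0.36 ± 0.14, adjusted p = 0.317, edgeR). Of the receptors 3 were tested and 0 were called, also at an unadjusted p under 0.05 and by DESeq2 and limma-voom, and Il11ra1 had the smallest p (adjusted p = 0.769, edgeR).

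Metrnl, which in mouse fat and muscle acts on immune cells, was the abundant member with the lower mean in Piezo1 KO. The gene lies on chromosome 11 from 121701544 to 121716306 (mm10, plus strand). It was at 129.7, 141 and 131 CPM in Piezo1 KO replicates 1, 2 and 3, against 123, 197 and 169.7 CPM in WT replicates 1, 2 and 3. WT replicate 1 lay below all Piezo1 KO libraries and the other WT libraries above them. The means were 134 ± 6.28 CPM in Piezo1 KO and 163 ± 37.1 CPM in WT (SD, n = 3 each), and the log2 fold change of −0.29 ± 0.16 did not pass (adjusted p = 0.512, edgeR). It was −0.45 without WT replicate 1 and −0.05 in limma-voom. Per kilobase Metrnl made up 85.3% to 89.0% of Metrnl and Metrn together in Piezo1 KO and 83.7% to 87.7% in WT, with overlap. Kit, which encodes a receptor reported to bind METRNL in mouse heart, was at 135, 122 and 122 CPM in Piezo1 KO replicates 1, 2 and 3, against 228, 220.1 and 162 CPM in WT replicates 1, 2 and 3. Its log2 fold change of −0.69 ± 0.14 missed the threshold (adjusted p = 0.0577, edgeR) and passed in 4 of 13 alternatives, among them without WT replicate 3 (0.00677). Kit is also a mast cell gene, and the markers of eosinophils, basophils and mast cells (6 of 12 in the table) summed to 11.0 to 13.7 CPM in Piezo1 KO and 15.7 to 22.1 CPM in WT, with Prg2, Epx, Ear1, Ear2, Mcpt4 and Ms4a2 not in the table used here. Of the 5 tested, 0 were called higher and 1 lower, the mast cell gene Cma1 (log2 fold change −2.03 ± 0.35, adjusted p = 0.0312, edgeR). Ccr3 went the other way without being called, with a mean of 7.33 CPM in Piezo1 KO and 4.92 CPM in WT. The part of these cells in the Kit values was not tested. Metrn, the other meteorin, and Kit both had lower means in Piezo1 KO at an unadjusted p under 0.05 (6.91% of all tested genes). DESeq2 and limma-voom each called 1 of these 2 lower. Of all 14149 genes DESeq2 called 241 lower and limma-voom 172.

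Ecm1 encodes a secreted glycoprotein that binds other matrix proteins, and in mouse liver it restrains the activation of latent TGF-beta. The gene lies on chromosome 3 from 95734147 to 95739569 (mm10, minus strand). It was at 77.3, 77.3 and 68.2 CPM in Piezo1 KO replicates 1, 2 and 3, against 45.6, 45.2 and 52.8 CPM in WT replicates 1, 2 and 3, from 704 to 2237 counts per library. The lowest Piezo1 KO library was well above the highest WT library, WT replicate 3. The means were 74.3 ± 5.26 CPM in Piezo1 KO and 47.9 ± 4.26 CPM in WT (SD, n = 3 each). Its log2 fold change was 0.64 ± 0.11 (SE; 95% interval 0.40 to 0.88; adjusted p = 0.0277, edgeR), and it stayed between 0.58 and 0.71 over 13 alternative fits. The call was lost without Piezo1 KO replicate 1 (adjusted p = 0.151), 2 (0.185) or 3 (0.0914) and without WT replicate 1 (0.153), and it was kept without WT replicate 2 (0.0431) or 3 (0.0196). The 2 genes most like Ecm1 in pattern were Cmtm7, a membrane protein of the MARVEL family, and Dgat2, an enzyme of triglyceride synthesis, at a root-mean-square difference of 0.0555 and 0.0569 log2 CPM, where Ecm1 varied by 0.329. Both were themselves called higher (adjusted p = 0.0292 and 0.0270, edgeR). That follows largely from choosing them for their likeness to Ecm1 in the same libraries.

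**Figure D4:**
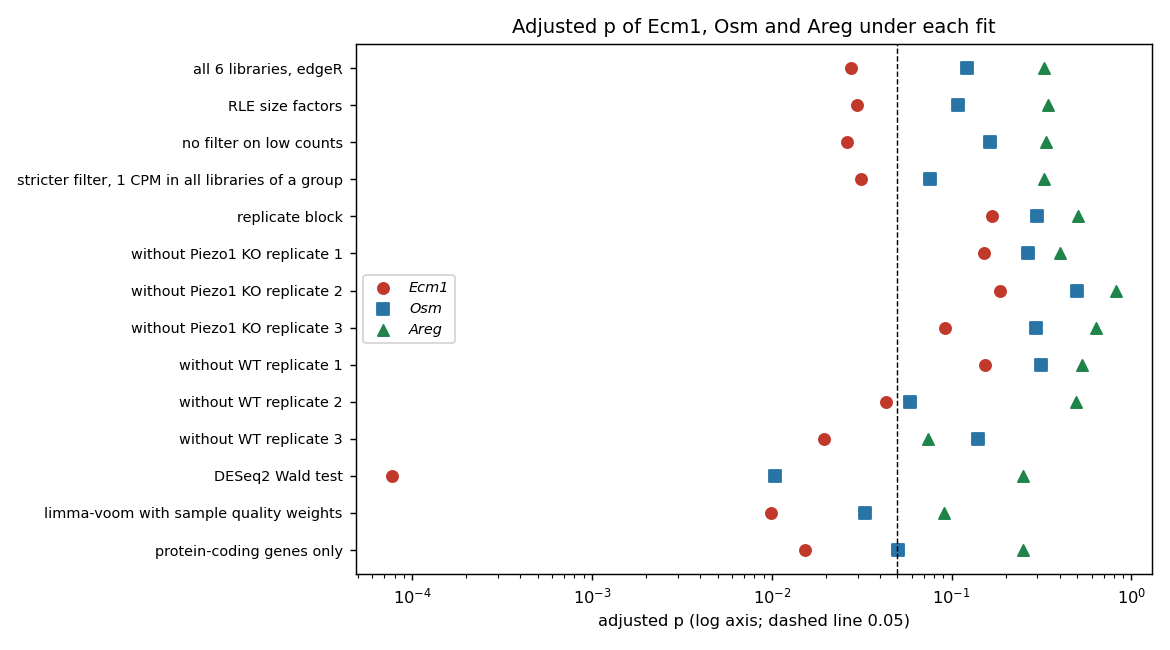
Adjusted p (log axis, dashed line at 0.05) of Ecm1, Osm and Areg under the edgeR fit with all 6 libraries and 13 alternatives. Ecm1 is left of the line in the fit with all libraries and in 8 alternatives, Osm in DESeq2 (0.0104) and limma-voom (0.0330) and just right of it with protein-coding genes only (0.0502), and Areg in none.

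Marker lists of other cells differed in direction. Without overlap, those of fibroblasts and B cells summed higher in Piezo1 KO, as Ecm1 was. Those of T cells (19.9 to 26.2 CPM, against 27.1 to 35.5 CPM in WT) and NK cells (40.2 to 59.8 against 62.8 to 85.8 CPM) summed lower. So did those of eosinophils, basophils and mast cells (11.0 to 13.7 against 15.7 to 22.1 CPM). Fibroblasts also make Ecm1, and 2 of 8 fibroblast markers were in the table, summing to 5.47 to 8.03 CPM in Piezo1 KO and 0.675 to 1.56 CPM in WT. Nearly all of this was Pdgfrb, a receptor for platelet-derived growth factors, which rose (log2 fold change 2.49 ± 0.35, adjusted p = 0.0166, edgeR). Col1a1, the defining collagen, was at 0.127, 0.173 and 0.342 CPM in Piezo1 KO and 0, 0.209 and 0 CPM in WT, and Col1a2, Col3a1, Pdgfra, Dcn, Lum and Acta2 were not in the table used here. B cell markers (3 of 7 in the table) summed to 80.2 to 104 CPM in Piezo1 KO and 34.4 to 40.3 CPM in WT, with Cd79a under 1 CPM in every library. Most of the difference was Ighm, which rose (log2 fold change 1.79 ± 0.19, adjusted p = 0.00473, edgeR), while Cd79b was not called (0.42 ± 0.12, adjusted p = 0.175). The part of these genes' source cells in the Ecm1 values was not tested.

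Among 10 other secreted matrix proteins tested, 0 were called by edgeR, and 3 were higher and 0 lower at an unadjusted p under 0.05 (6.30% and 6.91% of all tested genes). DESeq2 and limma-voom called 2 higher each, where they called 353 and 267 of all 14149 genes higher. The groups did not overlap for 5, all higher in Piezo1 KO, where 10.1% of all tested genes were. Over the 59 tested genes of all families, 10 were higher and 12 lower without overlap (10.1% and 10.5% of all tested genes). Among the 11 other growth and repair factors, 1 was higher and 4 were lower without overlap. The median log2 fold change of the 10 matrix genes was 0.43, against 0.02 over all genes tested. Srgn, the proteoglycan of secretory granules, had the smallest p and was at 833, 1017 and 1026 CPM in Piezo1 KO replicates 1, 2 and 3, against 672, 631 and 751 CPM in WT replicates 1, 2 and 3 (log2 fold change 0.49 ± 0.11, adjusted p = 0.0966, edgeR).

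Mmp9, a gelatinase, and Tgm2, which cross-links matrix proteins, were at the floor of these libraries. Both lie on chromosome 2 (mm10), Mmp9 from 164940780 to 164955850 on the plus strand and Tgm2 from 158116402 to 158146436 on the minus strand. Mmp9 had 4, 5 and 4 counts in Piezo1 KO replicates 1, 2 and 3, against 4, 22 and 5 counts in WT replicates 1, 2 and 3, and did not pass the filter on low counts. By CPM the Piezo1 KO libraries (0.169, 0.173 and 0.171) were all below the WT libraries (0.201, 0.657 and 0.375), with WT replicate 2 far above the rest. Without the filter its log2 fold change was −1.28 (adjusted p = 0.545, edgeR). Neutrophils are a known source of Mmp9, and of 10 neutrophil markers 2 were in the table (Ly6g and Cxcr2), both under 1 CPM in every library, as Mmp9 was. The part of neutrophils in the Mmp9 values was not tested. Tgm2 had 15, 1 and 7 counts in Piezo1 KO replicates 1, 2 and 3, against 22, 44 and 5 counts in WT replicates 1, 2 and 3. The groups overlapped through WT replicate 3, and the log2 fold change of −1.60 ± 0.82 had a 95% interval from −3.49 to 0.29 (adjusted p = 0.470, edgeR). It was −2.55 without Piezo1 KO replicate 1 and −1.03 without Piezo1 KO replicate 2, the library with 1 count. Tgm2 overlaps Rprd1b and Gm20412 on the opposite strand, and the labels do not say whether counting used strand. Macrophages also express Tgm2, and macrophage and monocyte markers (8 of 13 in the table) summed to 3.97 to 7.32 CPM in Piezo1 KO and 4.53 to 11.5 CPM in WT, with Adgre1, C1qb, C1qc and Ly6c2 under 1 CPM in every library. Their part in the Tgm2 values was not tested.

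Among enzymes related to these members, and their inhibitors, edgeR with all libraries made no call, while other fits called some. Of all 14149 genes tested, 6.30% were higher and 6.91% lower at an unadjusted p under 0.05 (edgeR). DESeq2 called 353 higher and 241 lower of the 14149, and limma-voom 267 and 172. Of 6 other matrix metalloproteinases tested 0 were called by edgeR, with 1 higher and 1 lower at an unadjusted p under 0.05, and DESeq2 called 1 higher and limma-voom 0. Mmp10, stromelysin-2, had the smallest p, at 2.87, 3.80 and 3.03 CPM in Piezo1 KO replicates 1, 2 and 3, against 1.66, 0.567 and 1.12 CPM in WT replicates 1, 2 and 3 (log2 fold change 1.56 ± 0.42, adjusted p = 0.141, edgeR, and 0.0334 in DESeq2). Of 2 tested metalloproteinase inhibitors and 1 tested transglutaminase other than Tgm2, 0 were called, also at an unadjusted p under 0.05 and by DESeq2 and limma-voom. Reck, a membrane-anchored inhibitor, had an adjusted p of 0.787 and Tgm1, the transglutaminase of keratinocytes, one of 0.513 (edgeR). Of 2 tested genes of plasminogen activation 0 were called by edgeR, with 1 higher and 1 lower at an unadjusted p under 0.05 and in limma-voom, and 1 higher in DESeq2. Serpine2, an inhibitor of plasminogen activators and thrombin, was at 9.30, 9.88 and 12.2 CPM in Piezo1 KO replicates 1, 2 and 3, against 4.58, 2.99 and 5.55 CPM in WT replicates 1, 2 and 3. Its log2 fold change of 1.27 ± 0.26 did not pass (adjusted p = 0.0606, edgeR), but it passed in 5 of 13 alternatives, among them without WT replicate 2 (0.0379) or 3 (0.0370).

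Among 11 other growth and repair factors tested, 1 rose, 0 fell and 10 did not pass (edgeR). At an unadjusted p under 0.05 there were 1 higher and 4 lower, and DESeq2 and limma-voom each called 1 higher and 2 lower. The gene that rose was Tff1, a trefoil peptide of mucosal repair, with 561, 810 and 540 counts in Piezo1 KO replicates 1, 2 and 3, against 255, 345 and 173 counts in WT replicates 1, 2 and 3. Its mean was 24.9 CPM in Piezo1 KO, with 23.1 CPM in the lowest library, and 12.0 CPM in WT. By CPM, WT replicate 3, the shallowest library, was the highest in WT, and the groups did not overlap. This was a log2 fold change of 1.06 ± 0.15 (SE; adjusted p = 0.0161, edgeR). The call was lost without Piezo1 KO replicate 1 (0.0982), 2 (0.111) or 3 (0.0637) and without WT replicate 1 (0.0928). Over all 14 families, 141 other genes were named, 93 were in the table and 59 were tested, of which 1 rose and 0 fell (edgeR), 7 were higher and 11 lower at an unadjusted p under 0.05 (6.30% and 6.91% of all tested genes), 29 had a positive and 30 a negative log2 fold change, and the median was −0.01. DESeq2 called 6 higher and 3 lower of the 59, and limma-voom 5 and 4. Of all 14149 genes these tools called 353 higher and 241 lower, and 267 and 172.

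**Figure D5:**
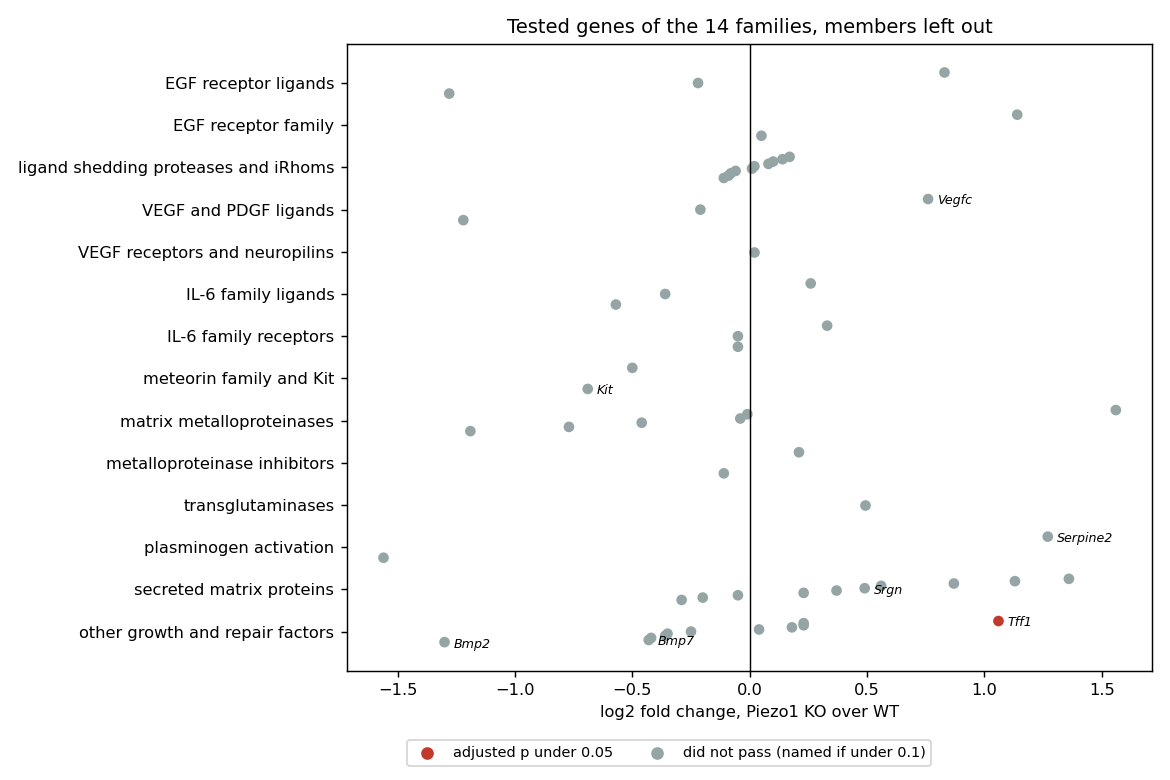
Log2 fold change of Piezo1 KO over WT for the 59 tested genes of the 14 families, 1 point per gene, members left out. The 1 gene with an adjusted p under 0.05 is Tff1 (1.06); genes with an adjusted p under 0.1 carry their names.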

How the data were processed

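Total RNA of lung ILC2s was the starting material, 10 ng a library, per the labels' protocols. The authors deposited one table of estimated counts, with a library in each row, matched to samples by their description. The submitters' processing notes name the build mm10; for aligner, counter and annotation nothing is given in the sources used here. Groups and replicate numbers come from the sample titles.

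Counts were rounded, filtered with filterByExpr (14149 of 18057 genes kept), TMM-scaled and tested in edgeR 4.0.16 under R 4.3.3 (quasi-likelihood functions glmQLFit, glmQLFTest), two-sided, without covariates, after the fit had been tested on simulated data. Standard errors are the absolute log2 fold change over the square root of F, and 95% intervals use the fit's degrees of freedom. Positions and exon lengths are from GENCODE M21 (17579 symbols with 1 position), which is built on mm10. Alternatives were RLE size factors, no filter, a stricter filter (1 CPM in every library of either group), replicate as a block, each library left out, DESeq2 1.42.0, limma-voom (limma 3.58.1) with sample quality weights, and protein-coding genes only.

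The members and gene lists were chosen with earlier results of these data known. Besides the members, the text names from each family the genes past the threshold or, where none passed, the tested gene with the smallest p, and for Areg and each called member the 2 genes of most like pattern (mean log2 CPM of at least 3, offset 0.5 CPM, predicted genes left out). Rprd1b, Gm20412, Metrn and markers beside a result were named after their values were seen. No replicates agreed within sampling noise (chi-square per gene 9.97 to 55.3, where sampling noise alone gives about 1).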

Additional observations from a re-analysis of the deposited data

How the results depend on the processing

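The direction of all 7 tested members was kept in all 90 alternative values, and the side of the threshold changed in 7, 5 of Ecm1 and 2 of Osm. With 1 library left out, genes called higher ranged from 22 to 209 and lower from 10 to 92, members called higher from 0 to 1, and other family genes called higher from 0 to 4 and lower from 0 to 1. Against 142 higher and 72 lower genes, DESeq2 called 353 and 241, limma-voom 267 and 172, protein-coding genes only 256 and 136, and the replicate block 37 and 15. Members called higher numbered 2 in DESeq2, 2 in limma-voom and 0 with the replicate block. Family genes called higher and lower numbered 6 and 3 in DESeq2, 5 and 4 in limma-voom and 4 and 3 with protein-coding genes only, 0 were called higher with the replicate block, and 1 was called lower under the stricter filter. Nrp1, which was not called, had log2 fold changes from −0.11 to 0.12 with 1 library left out, with −0.08 without Piezo1 KO replicate 1, −0.11 without WT replicate 2 and −0.10 in limma-voom. The cause of these differences was not tested.

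Equal replicate numbers did not pair the libraries: the deviations from the group means of same-numbered libraries correlated at −0.0227, −0.183 and −0.00752 over genes. The replicate block, which moved Ecm1 to an adjusted p of 0.168 and Tff1 to 0.107, uses up 2 more degrees of freedom. Per the longest transcript, the levels per length in WT moved to 8.03 for Vegfa, 25.2 for Ecm1 and 19.3 for Lif, by more than 1 SD of the WT libraries, and to 117 for Metrnl and 0.259 for Tgm2, by less than 1 SD. Mmp9 and Tgm2 rest on 1 to 44 counts per library; whether depth or the spread between libraries limits their tests was not tested.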

Other observations

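Several family genes under the filter on low counts were listed in few reads, and none was called in the fit without the filter. These genes were picked after their values were seen. Osmr, the receptor chain for oncostatin M, had 10, 9 and 11 counts in Piezo1 KO replicates 1, 2 and 3, against 2, 2 and 1 counts in WT replicates 1, 2 and 3 (adjusted p = 0.268 without the filter, edgeR). Tgfbi, a matrix protein induced by TGF-beta, had 0, 3 and 2 counts in Piezo1 KO replicates 1, 2 and 3, against 9, 14 and 14 counts in WT replicates 1, 2 and 3 (adjusted p = 0.193 without the filter, edgeR). Mmp14, a membrane-bound metalloproteinase, had 8, 25 and 11 counts in Piezo1 KO, against 2, 6 and 0 counts in WT (adjusted p = 0.314 without the filter, edgeR).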
